A study of Mus musculus with 2 samples.

Results

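Expression of interleukin-2 (IL-2), its receptor and the STAT5 pathway was examined in induced regulatory T (iTreg) cells treated with Tubastatin A (TSA), a selective inhibitor of histone deacetylase 6 (HDAC6). The 10 genes were taken by symbol from the table of 23238 distinct gene symbols: Il2, the receptor chain genes Il2ra, Il2rb, Il2rg and Il15ra, the kinase genes Jak1 and Jak3, the transcription factor genes Stat5a and Stat5b, and the STAT5 target gene Cish. All 10 were found, each in 1 row. Naïve CD4+ T cells from spleens of wild-type female C57BL/6 mice aged 7 to 10 weeks were activated with anti-CD3ε (5 μg/ml) and anti-CD28 (2 μg/ml) and kept for 1 day with TGF-β1 (5 ng/ml), antibodies to IFN-γ and IL-4 (10 μg/ml each), and either DMSO (control) or 10 μM TSA. Recombinant IL-2 (1 ng/ml) was present in both cultures, so neither library shows cells without IL-2. The study used 1 set of biological samples, which gave 1 library per condition, and no difference given below has a replicate check. How many mice supplied the cells of the sequenced cultures is not given in the sources used here.

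IL-2 is a growth factor that activated T cells secrete and that Treg cells depend on without producing much of it themselves. The α chain of the receptor (CD25, encoded by Il2ra) raises the affinity for IL-2, while the β chain (Il2rb) and the common γ chain (Il2rg) carry the signal to the kinases JAK1 and JAK3. These kinases phosphorylate STAT5A and STAT5B, which then enter the nucleus, bind DNA at palindromic sites and induce genes that include Il2ra, Foxp3 and Cish. The CISH protein in turn dampens cytokine receptor signalling, and the α chain encoded by Il15ra presents IL-15 to the same β and γ chains.

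Sequences are shown for genes with a regulatory motif, a shared promoter stretch or an assay position. Whether any of these has a part in the values was not tested. The first is the promoter window of Cish, a direct STAT5 target whose level was higher in the TSA library. It covers 250 bases before to 50 bases after the transcription start in RefSeq (GRCm38.p6, chr9:107296409-107296708, plus strand). Capitals mark each match to the STAT palindrome TTCNNNGAA, which reads alike on both strands.
Cish promoter window: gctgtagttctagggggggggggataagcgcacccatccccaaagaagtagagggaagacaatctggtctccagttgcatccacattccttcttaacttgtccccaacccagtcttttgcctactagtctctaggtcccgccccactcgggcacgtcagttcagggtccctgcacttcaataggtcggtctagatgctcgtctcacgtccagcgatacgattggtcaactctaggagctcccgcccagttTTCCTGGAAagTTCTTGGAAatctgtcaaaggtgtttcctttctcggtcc
The matches begin at bases 251 (the start in RefSeq) and 262 of the window. Cish was the only 1 of the 9 genes with a window in the table (12 windows) that held this motif. Of all 32851 windows of the same length, 8.30% held at least 1 match and 0.457% held 2 or more. A match is a string of letters, and binding of STAT5 was not measured here.

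The second is the promoter window of Il2 itself (GRCm38.p6, chr3:37125905-37126204, minus strand), shown because NFAT, the factor that couples the T cell receptor to Il2 transcription, binds sites with the core GGAAAA, which reads TTTTCC on the other strand. Capitals mark that core, searched on both strands, and the TATA box motif TATAAA, searched on the strand of the gene.
Il2 promoter window: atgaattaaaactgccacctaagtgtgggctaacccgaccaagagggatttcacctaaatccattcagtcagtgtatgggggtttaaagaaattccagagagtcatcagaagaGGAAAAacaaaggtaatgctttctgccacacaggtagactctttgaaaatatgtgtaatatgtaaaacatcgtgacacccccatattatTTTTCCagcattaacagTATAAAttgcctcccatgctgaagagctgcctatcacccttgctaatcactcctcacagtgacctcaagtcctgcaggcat
The core occurred at bases 114 and 203 and the TATA box motif at base 220. Windows of Il15ra (base 6), Jak3 (base 33) and Cish (base 249) also held the core. Of all windows, 23.4% held the core at least once, 3.62% held it 2 or more times, and 8.32% held TATAAA.

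The third comparison concerns Stat5a and Stat5b, neighbouring paralogs on chromosome 11 whose starts lie 8626 bases apart and which are transcribed away from each other. Their levels differed between the libraries by nearly the same factor, so their promoter windows were compared without gaps. RefSeq gives each gene 2 windows, and the longest similar stretch joined the downstream window of each, which for Stat5b begins well inside the gene as GENCODE draws it. It was 65 bases long with 58 identical bases (89.2%), at chr11:100860418-100860482 (plus strand) for Stat5a and chr11:100822563-100822627 (minus strand) for Stat5b, both GRCm38.p6. Capitals mark the identical bases.
Stat5a: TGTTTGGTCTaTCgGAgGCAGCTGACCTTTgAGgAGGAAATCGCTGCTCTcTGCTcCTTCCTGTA
Stat5b: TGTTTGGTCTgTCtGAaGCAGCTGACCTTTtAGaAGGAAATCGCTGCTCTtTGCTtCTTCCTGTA
The stretch ends just before the start site of its window in Stat5a and runs past it in Stat5b. Its longest identical run of 16 bases was found in 2 of the 32851 windows, which are those of Stat5a and Stat5b.

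The last sequences are the qRT-PCR primers that the study used for Il2ra, shown because of their distance from the 3′ end that QuantSeq reads. The study ran this qRT-PCR on cells from a longer culture than the 1 day of these libraries, and reported lower Il2ra expression with TSA.
Sense primer, exon 1: aaccatagtacccagttgtcgg
Antisense primer, exon 2: tcctaagcaacgcatatagacca
On the Il2ra transcript of 4412 bases in GENCODE M21, the primers lay in the named exons of 8 and enclosed 166 bases that end 4014 bases before the 3′ end. A second Il2ra transcript of 1013 bases in 2 exons holds only the sense primer, 801 bases before its 3′ end. From which of these 3′ ends the Il2ra counts come cannot be told apart here.

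Each transcript gives about 1 QuantSeq fragment whatever its length, so counts can be set side by side between genes without dividing by length. The deposited values are log2 of a normalized count plus 1, and reads were recovered from the steps of 1.005 (control) and 0.995 (TSA) normalized counts per read. The libraries held 10845868 and 10433447 reads on genes, with a floor of 3 reads at a CPM of 0.277 and 0.288. Fold changes are TSA over control, taken from the deposited values and their pseudocount of 1. Their 95% intervals are exact Clopper-Pearson intervals of the read ratio, which compare these 2 libraries and cover counting error only. They take reads as independent, and PCR copies of a molecule are not, so the true counting error may be larger. Genes reaching 10 reads in either library, 12164 in all, are the genes tested, and those past 2-fold, the threshold of the study, count as changed. All 10 genes described here passed this filter in both libraries.

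The cells carried the markers of CD4+ T cells, with all 8 genes of that list read and 17218 and 19344 summed reads in the control and TSA libraries. By counting error 4 of these were higher with TSA (Thy1 most, with 2427 and 3848 reads) and 2 lower, Cd3e (1565 and 1352) and Cd5 (2227 and 1950). Of all genes tested 28.1% were higher and 28.0% lower. Of those averaging 1000 normalized counts or more, 20.7% were higher and 54.9% lower. Markers of other cells had few reads, with the exception of Nkg7 in the NK cell list. Of the B cell genes, Cd79b had 11 reads with DMSO and 4 with TSA, while Ebf1 had 1 and 12 (interval of the fold change 1.76 to 508), Cd79a 1 and 5, Ms4a1 0 and 5, and Pax5 0 in both. The 9 myeloid genes summed to 85 and 78 reads, the 2 CD8 genes to 80 and 87, and the 6 dendritic cell genes to 15 and 50. Among the last, Flt3 (0 and 33) and Zbtb46 (2 and 11) were higher with TSA beyond counting error, Itgax (4 and 0) and Xcr1 (9 and 6) had fewer reads with TSA, and Clec9a and Siglech were at 0 in both. Of the erythroid genes, Hbb-bs (4 and 17) was higher with TSA beyond counting error, while Hba-a1 had 28 reads in both, Alas2 10 and 9, and Hbb-bt 1 and 4. The 5 NK cell genes summed to 919 and 1086 reads, of which Nkg7 gave 889 and 1043, while Ncr1 had 0 and 1 and Klrb1c 0 in both. Whether these differences have a part in the values below was not tested. In such bulk RNA, fewer cells that express a gene and less RNA of it per cell cannot be told apart.

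None of the 10 genes changed past 2-fold in the TSA library. Over all genes tested, 14.7% passed 2-fold. Well-read genes, here those averaging 1000 normalized counts or more, a level that 7 of the 10 reached, passed it in 0.783% of cases (0.184% higher and 0.599% lower). Il2, all 3 chains of the IL-2 receptor and Jak3 were lower in the TSA library beyond counting error, whereas Jak1, both STAT5 genes and Cish were higher beyond it, and Il15ra could not be placed. That makes 9 of 10 genes whose interval excluded no change (4 higher and 5 lower), beside 56.1% of all genes tested (28.1% higher and 28.0% lower) and 75.6% of the well-read genes, whose intervals are narrow. The median log2 fold change of the 10 genes was 0.03 (range -0.34 to 0.48), beside 0.02 over all genes tested. All 10 lay inside the bulk of the genes, between the 18.9th percentile (Jak3) and the 78.2nd percentile (Il15ra) of all log2 fold changes.

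**Figure D1:**
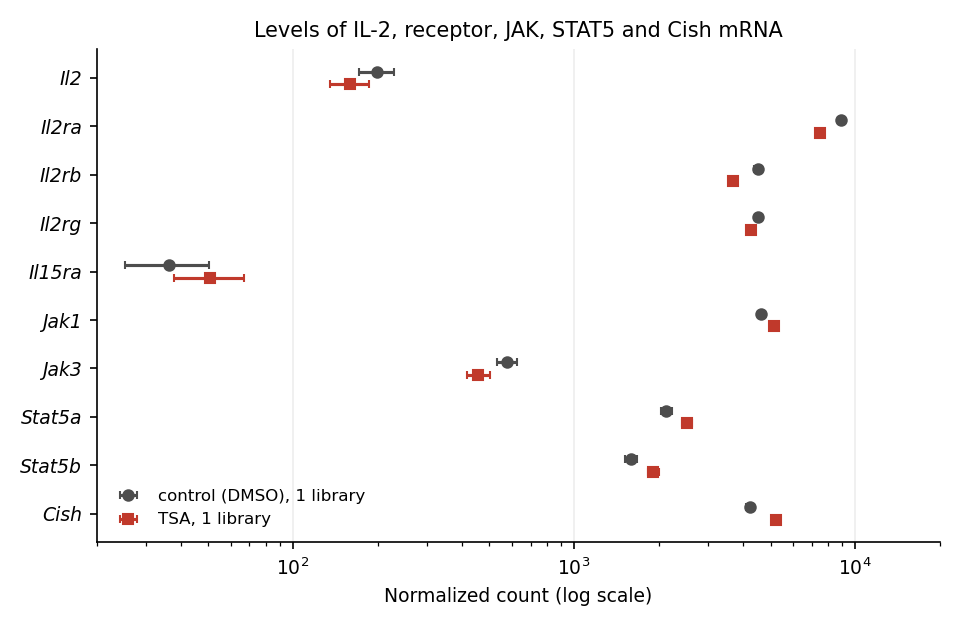
Normalized count (log scale) of each gene in the control library (grey circles) and the TSA library (red squares), 1 library each, with 95% Poisson intervals of the reads. Il2ra stood highest in both libraries, Il15ra and Il2 lowest, and in no gene did the libraries differ 2-fold.

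Il2, the ligand, lies on chromosome 3 from 37120523 to 37125959 (GENCODE M21 on GRCm38, which is mm10, the build the submitters name; all positions below are from there). It had 199 normalized counts in the control library (198 reads) and 159 in the TSA library (160 reads). Il2 was thus read in both cultures at a modest level, near the 46.3rd and 41.2nd percentile of the genes tested. The fold change was 0.801, with an interval of 0.645 to 0.990 that only just excluded no change. Scaling by total reads ended that call (log2 fold change -0.25 in place of -0.32, interval including no change). In addition, 113 of the 426 windows of 75 bases (the read length) in the last 500 bases of the Il2 transcript also occur in transcripts of Ntan1, which had 419 and 444 reads, so reads from there could not be assigned to 1 gene with certainty.

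Il2ra, the gene of CD25, lies on chromosome 2 from 11642807 to 11693193. It had 8895 normalized counts with DMSO and 7475 with TSA, from 8851 and 7512 reads. This was the highest level of the 10 genes in both libraries, at the 99.0th and 98.8th percentile of all genes tested. The TSA library stood lower, with a fold change of 0.840 (0.815 to 0.867). Il2rb, which encodes the β chain shared with the IL-15 receptor, lies on chromosome 15 from 78479256 to 78495271. It had 4506 and 3688 normalized counts (4484 and 3706 reads), which made a fold change of 0.818 (0.783 to 0.855). The 2 chains were lower by a similar amount: the ratio of Il2ra to Il2rb reads was 1.97 with DMSO and 2.03 with TSA, and the ratio of these ratios was 1.03 with an interval of 0.973 to 1.08. This ratio is 1 of 12 within-library ratios, all chosen after the values were seen.

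Il2rg, the gene of the common γ chain used by the receptors for IL-2, IL-4, IL-7, IL-9, IL-15 and IL-21, lies on chromosome X from 101264378 to 101268255. It had 4528 normalized counts with DMSO and 4254 with TSA (4506 and 4276 reads). This was the smallest difference of the 10 genes, with a fold change of 0.940 (0.901 to 0.980), and with scaling by total reads the interval included no change (log2 fold change -0.02). Relative to Il2rg in the same library, a measure that no scaling between libraries can move, Il2ra was lower by a factor of 0.894 (0.849 to 0.942) and Il2rb by 0.871 (0.820 to 0.926). Of all reads on the 3 chains, the γ chain gave 25.3% in the control library (exact binomial 95% interval 24.6 to 25.9) and 27.6% in the TSA library (26.9 to 28.3), so that its share was larger with TSA. The last 500 bases of Il2rg transcripts overlap the gene model Gm20489 on the same strand, with 327 of 852 windows shared, and reads there cannot be told apart.

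Il15ra, the α chain of the IL-15 receptor, lies beside Il2ra on chromosome 2 from 11705290 to 11734317, with 12096 bases between the genes. It had 36.2 normalized counts with DMSO and 50.8 with TSA, from 36 and 51 reads. The control was the lower of the 2, against the direction of Il2ra, but the fold change of 1.39 had an interval of 0.898 to 2.21, and a difference was not detectable at this depth. Il15ra was the least read of the 10 genes by far: of all reads on both α chains it gave 0.405% in the control library (0.284 to 0.560) and 0.674% in the TSA library (0.502 to 0.886).

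**Figure D2:**
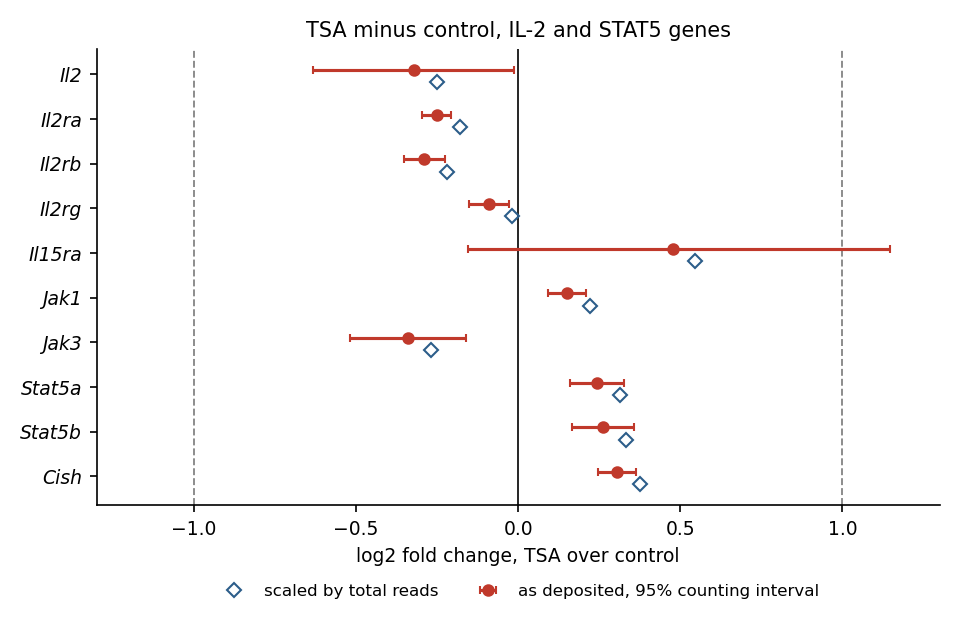
Log2 fold change (TSA over control) of each gene from the deposited values with 95% counting intervals (red circles) and after scaling by total reads (blue diamonds); dashed lines mark 2-fold. Cish, Stat5a, Stat5b and Jak1 lie to the right of 0, Il2ra, Il2rb and Jak3 to the left under both scalings, and Il2rg moves next to 0 with total reads.

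The 2 kinases differed in opposite directions. Jak1, which pairs with the β chain and with many other cytokine receptors, lies on chromosome 4 from 101152367 to 101265282 and had 4639 normalized counts with DMSO and 5151 with TSA (4616 and 5177 reads). The TSA value was the higher, with a fold change of 1.11 (1.07 to 1.16). Jak3, which signals for receptors with the common γ chain, lies on chromosome 8 from 71676296 to 71690575 and had 578 and 457 normalized counts (575 and 459 reads). Here the TSA value was the lower, with a fold change of 0.791 (0.698 to 0.895), the lowest of the 10 genes. The ratio of Jak3 to Jak1 reads was 0.125 with DMSO and 0.0887 with TSA. The second was 0.712 of the first (0.624 to 0.811), a value that does not depend on the scaling between libraries. Jak3 was also lower relative to Il2rg, the chain it binds, by a factor of 0.841 (0.737 to 0.960). In the annotation, 330 of 831 windows at the 3′ ends of Jak3 transcripts also belong to Insl3, which had 0 reads in both libraries.

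Stat5a lies on chromosome 11 from 100859351 to 100885169 and had 2131 normalized counts with DMSO and 2522 with TSA (2120 and 2535 reads), which made a fold change of 1.18 (1.12 to 1.25). Stat5b, from 100780731 to 100850724 on the same chromosome, had 1596 and 1914 normalized counts (1588 and 1923 reads), which made a fold change of 1.20 (1.12 to 1.28). Both paralogs, whose shared promoter stretch is printed above, were higher in the TSA library. Stat5a gave 57.2% of the reads of the pair in the control library (55.6 to 58.8) and 56.9% in the TSA library (55.4 to 58.3). Their ratio with TSA was 0.987 of that with DMSO, with an interval of 0.903 to 1.08, so no shift between the paralogs was detectable. Of the windows at the 3′ ends of Stat5a transcripts, 35 of 1022 also occur in Stat5b, and none of the 426 windows of Stat5b occur in another gene. The 3′ end of Stat5a also overlaps Stat3 on the opposite strand, which had 6887 and 7287 reads. The 3′ ends of Il2, Jak1 and Cish likewise overlap Adad1, Raver2 and Gm17041, and whether the counting used strand is not given in the sources used here.

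Cish, on chromosome 9 from 107296026 to 107302784, carries the pair of STAT motifs printed above. It had 4231 normalized counts with DMSO and 5230 with TSA, from 4210 and 5257 reads. The TSA value was the higher, with a fold change of 1.24 (1.19 to 1.29), and after Il15ra this was the highest fold change of the 10 genes. Cish rested on many reads and kept its direction under all 5 other scalings and both other pseudocounts tried, as did the other 9 genes. Some of its 3′ windows, 180 of 1189, also belong to the gene models Gm17040 and Gm17041.

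The direction of Cish was set beside those of other inhibitors of cytokine signalling in the same library. Socs2, another STAT5 target, had 3071 reads with DMSO and 1629 with TSA, the reverse of Cish. There were 1.37 Cish reads per Socs2 read with DMSO and 3.23 with TSA, which is 2.35 times as many (2.19 to 2.53). Relative to Socs1 (1079 and 1234 reads) and Socs3 (439 and 536 reads), the level of Cish with TSA was 1.09 (0.996 to 1.20) and 1.02 (0.894 to 1.17) times that with DMSO, and both intervals included no change. Relative to Stat5a the factor was 1.04 (0.973 to 1.12). Relative to Il2ra, which STAT5 also induces, Cish was higher by a factor of 1.47 (1.40 to 1.55).

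**Figure D3:**
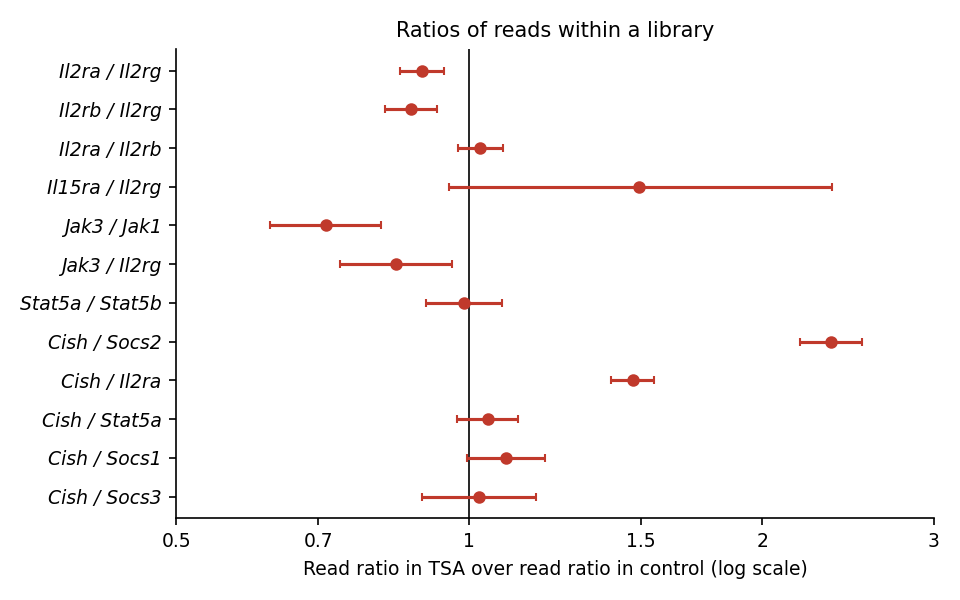
For 12 pairs of genes, the ratio of their reads in the TSA library divided by the ratio in the control library (log scale), with exact 95% intervals; 1 means no change, and scaling between libraries has no influence. Cish/Socs2 stands farthest to the right at 2.35 and Jak3/Jak1 farthest to the left at 0.712, while Stat5a/Stat5b and Il2ra/Il2rb lie at 1 within their intervals.

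The order of levels was much the same in both libraries. In the control library it ran Il2ra, Jak1, Il2rg, Il2rb, Cish, Stat5a, Stat5b, Jak3, Il2 and Il15ra. The neighbours Jak1 (4616 reads) and Il2rg (4506) did not differ beyond counting error, nor did Il2rg and Il2rb (4484). In the TSA library Cish stood in the second place after Il2ra, level with Jak1 within counting error (5257 and 5177 reads), and was followed by Jak1, Il2rg and Il2rb, now each apart from the next. The lower part of the order, from Stat5a to Il15ra, was the same in both.

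The spread of the fold changes depended on the level of the gene, so each gene was placed among genes of similar level. Among the 568 genes with a mean of at least 3000 normalized counts, the middle 50% of log2 fold changes (25th to 75th percentile) ran from -0.29 to 0.06 and the 95th percentile was 0.32. Cish (0.31) and Jak1 (0.15) exceeded the 75th percentile of that group but not the 95th. Il2rg (-0.09) lay at its median of -0.09, and Il2ra (-0.25) and Il2rb (-0.29) near its 25th percentile. Among the 1603 genes from 1000 to 3000, the 75th percentile was 0.04 and the 95th 0.29, and Stat5a (0.24) and Stat5b (0.26) lay between them. Il2 (-0.32) and Jak3 (-0.34) lay below the 25th percentiles of their groups (-0.26 and -0.27), and Il15ra (0.48) lay between the median and the 75th percentile of its group (0.22 and 0.68). Of the 7 well-read genes, 4 were higher and 3 lower beyond counting error, where 20.7% and 54.9% of all genes at that level were higher and lower.

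**Figure D4:**
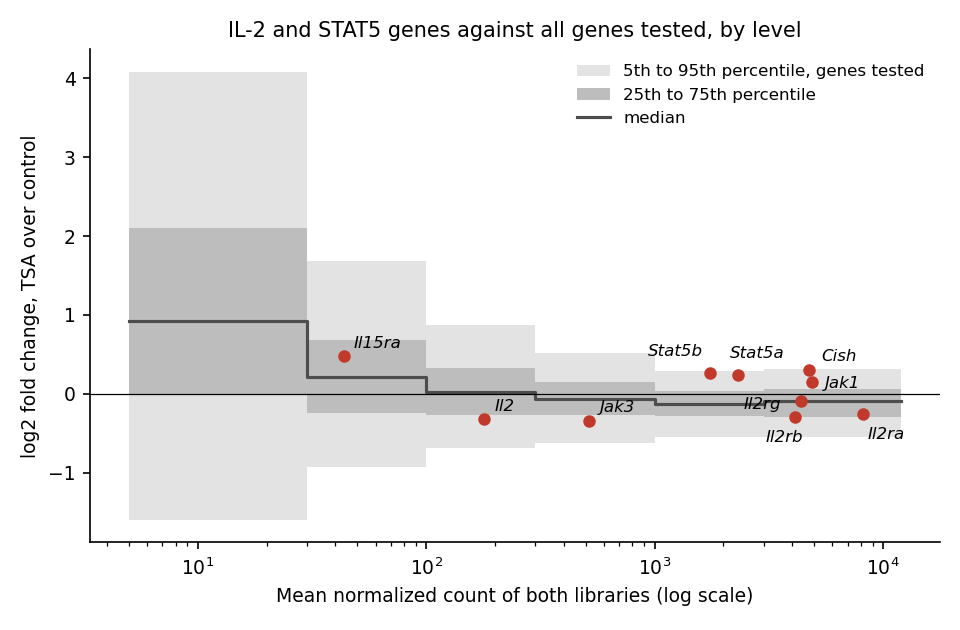
Log2 fold change (TSA over control) against the mean normalized count of both libraries (log scale) for the 10 genes (red), over the 5th to 95th and 25th to 75th percentiles and the median of all genes tested in 6 ranges of level (grey). The 10 genes lie inside the 5th to 95th percentile band of their level, with Cish, Jak1, Stat5a and Stat5b above the darker band.

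The other genes of the pathway were taken as 8 lists (Socs1, Socs2, Socs3, Il4ra, Prdm1 and Il7r belong to 2 each), and counts below are of genes past 2-fold unless counting error is named. For the common γ chain family, 5 of 9 genes were tested, and 1 was past 2-fold, Il4, with 1 read with DMSO and 14 with TSA (fold change 7.42, interval 2.11 to 586), in a culture with antibody to IL-4. Higher calls made up 11.5% of all genes tested and lower calls 3.15%. By counting error 1 of the 5 was higher and 2 lower, and the intervals of the other 2 included no change. The background shares were 28.1% and 28.0% of all genes tested, and 20.7% and 54.9% of the well-read genes. Il21r, the private chain of the IL-21 receptor, had 1636 and 1065 reads (fold change 0.645, interval 0.596 to 0.697), and Il4ra had 1661 and 1511 reads (fold change 0.901, interval 0.839 to 0.966). Both encode partners of the common γ chain and stood lower in the TSA library. Il7r, the other partner chain tested, had 84 and 109 reads (fold change 1.28, interval 0.958 to 1.73). Il15 (5 and 0 reads), Il21 (5 and 7), Il7 (0 and 3) and Il9r (2 and 2) were below the minimum for testing.

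None of the 7 other JAK and STAT genes passed 2-fold, with 2 higher and 2 lower beyond counting error and a median log2 fold change of 0.06. Beyond counting error 28.1% of all genes tested were higher and 28.0% lower (20.7% and 54.9% of the well-read genes). Of all genes tested 14.7% passed 2-fold, and of the well-read genes 0.783%. Stat2, a factor of the interferon response, had 108 and 155 reads (fold change 1.42, interval 1.10 to 1.83). Stat6, which transmits IL-4 signals, had 1396 and 1199 reads (fold change 0.851, interval 0.787 to 0.919). Stat3, the most abundant, was higher by a factor of 1.05 (1.01 to 1.08).

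Among the 8 other JAK-STAT inhibitors none passed 2-fold, 4 were higher and 3 lower beyond counting error, and the median log2 fold change was 0.10. The background shares were 28.1% higher and 28.0% lower over all genes tested, and 20.7% and 54.9% over the well-read genes. Past 2-fold were 14.7% of all genes tested and 0.783% of the well-read genes. Their fold changes ranged from Socs2 at 0.525 (0.494 to 0.558) to Pias3, an inhibitor of STAT DNA binding with 54 and 89 reads, at 1.62 (1.15 to 2.33). The phosphatase gene Ptpn1 had most reads of the list (4597 and 4679) and a fold change of 1.01 (0.967 to 1.05).

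Of the 12 genes for receptor adaptors and the PI3K and Ras branches, 1 was past 2-fold and lower, Gab2, a scaffold protein gene with 11 and 4 reads, but its interval of 0.0836 to 1.21 included no change. By counting error 3 were higher and 3 lower, beside 28.1% and 28.0% of all genes tested and 20.7% and 54.9% of the well-read genes, and the median log2 fold change was -0.03. Past 2-fold and lower were 3.15% of all genes tested. Ptk2b, a kinase gene, had 1753 and 1336 reads (fold change 0.755, interval 0.702 to 0.811). Shc1, an adaptor that links the β chain to Ras, had 201 and 253 reads (fold change 1.25, interval 1.03 to 1.51). Lck, the Src-family kinase of T cells, had most reads of the list (4531 and 4188) and a fold change of 0.915 (0.877 to 0.955).

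The 18 other genes that STAT5 induces did not share one direction. Of the 16 tested none was past 2-fold, 5 were higher and 8 lower beyond counting error, and their median log2 fold change was -0.20. Of all genes tested 28.1% were higher and 28.0% lower beyond counting error, and of the well-read genes 20.7% and 54.9%. The shares past 2-fold were 14.7% and 0.783%, and nothing particular to the list is read from its counts. The lower genes included Socs2 and Foxp3, the lineage factor of Treg cells, with 1633 and 965 reads and a fold change of 0.586 (0.540 to 0.634). The paper lists Foxp3 among the genes it calls downregulated by more than 2-fold, which the deposited values did not reach. The higher genes included Ccnd2, which encodes cyclin D2 and had most reads of all listed genes (25089 and 29251), at 1.15 (1.13 to 1.17). Among the 6 genes that IL-2 or STAT5 lowers, none was past 2-fold, 2 were higher and 1 lower beyond counting error (same background), and the median log2 fold change was 0.39. Il17a, a cytokine gene of Th17 cells, had 29 and 57 reads (fold change 1.91, interval 1.22 to 3.16), and Il6ra, a receptor chain for IL-6, had 357 and 254 reads (fold change 0.705, interval 0.597 to 0.830).

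Of the 13 regulators of Il2 transcription, 1 was past 2-fold, Fos, a subunit of AP-1, with 4 and 12 reads and an interval of 0.900 to 12.6 that included no change. Past 2-fold and higher were 11.5% of all genes tested. By counting error 4 of the regulators were higher and 2 lower, beside 28.1% and 28.0% of all genes tested and 20.7% and 54.9% of the well-read genes, and their median log2 fold change was 0.10. Ikzf3, which encodes Aiolos, a repressor of Il2, had 425 reads with DMSO and 795 with TSA, a fold change of 1.85 (1.64 to 2.09). Nfatc1, which encodes a factor of the NFAT family whose core is marked in the Il2 window above, had 1636 and 2239 reads (fold change 1.35, interval 1.27 to 1.45). Ikzf1, which encodes Ikaros and had most reads of the list, stood at 1.12 (1.06 to 1.17). None of the 8 regulators of Il2 mRNA stability passed 2-fold, with 2 higher and 2 lower beyond counting error and a median log2 fold change of -0.10. The background shares were again 28.1% and 28.0%, and 20.7% and 54.9% for well-read genes. Past 2-fold in either direction were 14.7% of all genes tested and 0.783% of the well-read genes. Ilf2, a subunit of an RNA-binding complex named for the IL-2 gene, had 1180 and 910 reads (fold change 0.764, interval 0.699 to 0.833). Among the genes that promote mRNA decay, Zfp36l1 (1.12, 1.07 to 1.17) and Rc3h1 (1.12, 1.01 to 1.23) were higher. The fold changes of Zfp36l2 (0.959, 0.869 to 1.06), Zfp36 (0.923, 0.769 to 1.11) and Zc3h12a (0.906, 0.768 to 1.07) lay under 1 with intervals that included no change.

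**Figure D5:**
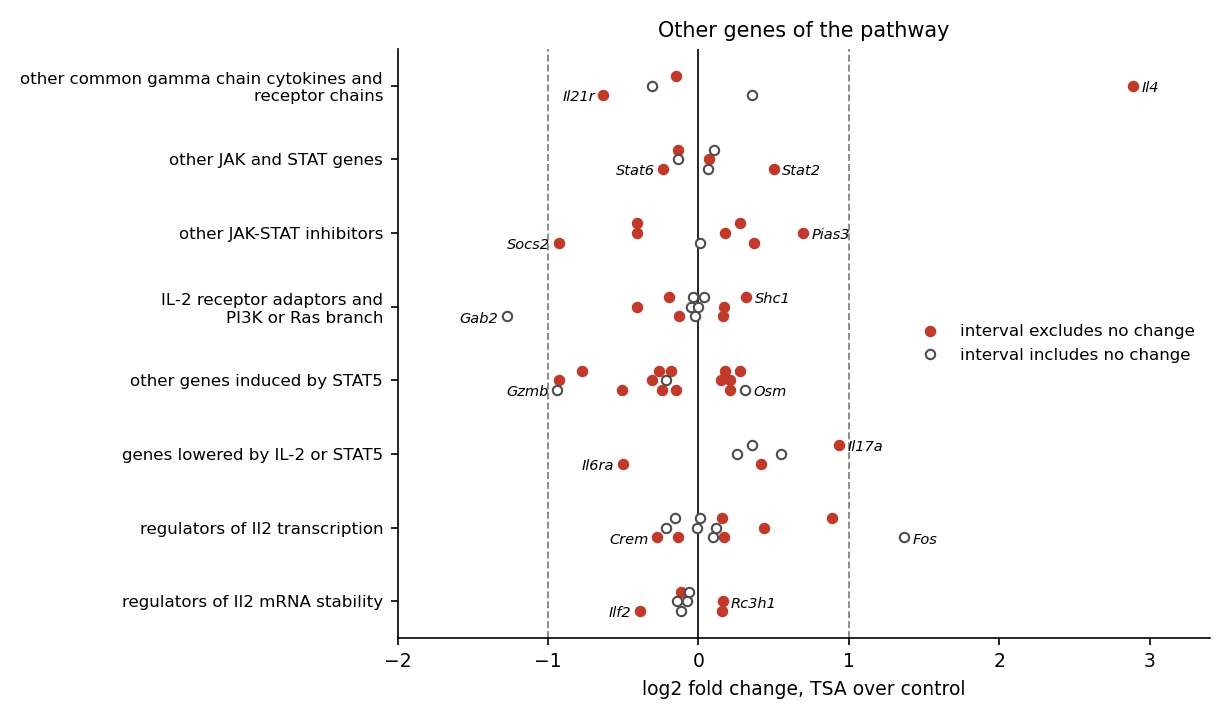
Log2 fold change (TSA over control) of the tested genes in 8 lists of other pathway genes, 1 library per condition. Filled points have a 95% counting interval that excludes no change and open points do not, dashed lines mark 2-fold, and the lowest and highest gene of each list are named; Il4, Fos and Gab2 lie past 2-fold.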

How the data were processed

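RNA-seq was analysed for 2 samples, 1 control and 1 TSA library, grouped by the treatment in their labels. The authors prepared QuantSeq 3′ mRNA libraries, read 75 nt from 1 end of each fragment (NextSeq 500) and used ExDEGA, and the submitters' processing notes name Bowtie2, bedtools and mm10. The annotation and the normalization are not given in the sources used here. Each deposited value is log2 of a normalized count plus 1, given to 3 decimals. The values were used as deposited. Reads were recovered by dividing back-transformed values by the step of each library. Among values under 300 counts, 99.7% (control) and 99.3% (TSA) lay within 0.1 of a whole read. The rounding makes reads of Il2ra, the highest of the 10 genes, uncertain by up to 3.07. There was 1 library per condition, so no p-value was computed.

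Of the genes outside the 10, those named are the ones past 2-fold, the most read of each list, and the 2 with the largest log2 fold change in either direction among those whose interval excluded no change. Marker genes, genes that share sequence with the 10, and genes named in the ratios or below the minimum as well as Il7r and 3 genes of mRNA decay are outside that rule and were named after their values were seen. The 10 genes and the lists were chosen with earlier results of these data known. Genes were matched by symbol to GENCODE M21 (10 of 10). The steps were tested on simulated data. Python 3.11.15, numpy 2.4.6, scipy 1.17.1 and pandas 2.3.3 were used. Other scalings, pseudocounts, filters and thresholds were tried. For the B cell and erythroid markers, single genes are given in place of a sum, and 1 gene of each is not reported here.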

Additional observations from a re-analysis of the deposited data

How the results depend on the processing

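No paired analysis was possible because each condition had only 1 library, which also kept replicates from being left out in turn. The 10 genes kept their direction under 5 other scalings and pseudocounts of 0.1 and 5, and none passed 2-fold under any scaling, pseudocount or filter tried, nor with a threshold of 1.5-fold. Scaling by total reads, with or without Rn45s, raised the median log2 fold change of the 10 genes from 0.03 to 0.10 and 0.12, and the median of all genes tested by 0.07 and 0.08. With either of these scalings by total reads, and with the upper quartile, 7 in place of 9 of the genes had an interval that excluded no change, because those of Il2 and Il2rg included it. With a mean of at least 50 normalized counts, which leaves out Il15ra, the median of the other 9 genes was -0.09, so its sign is not settled. Total reads also put 1 gene lowered by IL-2 or STAT5, Il17a, past 2-fold and higher. The number of all genes past 2-fold, 1783, became 4017 without a filter, 747 with at least 10 reads in both libraries, 419 with a mean of at least 50 normalized counts, 3293 with a 1.5-fold threshold, and 703 when the whole interval had to lie beyond 2-fold. The fewer or additional genes tested, or the threshold itself, account for these changes. Depth limits Il15ra and the genes with fewer than 20 reads.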

Other observations

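The nearest tested genes wholly on either side of each of the 10 on the chromosome were chosen after the values were seen. They are given by their log2 fold change, in order of coordinates. Genes that overlap 1 of the 10 were left out, such as Stat3 (0.07), which overlaps the 3′ end of Stat5a. Around Stat5b (0.26) and Stat5a (0.24), 8626 bases apart, Ghdc, 9773 bases before Stat5b, stood at -0.06. Atp6v0a1, 124282 bases after Stat5a, stood at 0.53. Pgm1, 1165072 bases before Jak1 (0.15), stood at 0.42 and Ak4, 153994 bases after it, at 0.25. Rbm17, 38653 bases before Il2ra, stood at -0.46, followed by Il2ra at -0.25, Il15ra at 0.48 and Ankrd16 at 0.95. Mapkapk3, 6148 bases before Cish, stood at -0.14 and Hemk1, 24299 bases after it, at 0.68, with Cish at 0.31. Foxo4 and Med12, which flank Il2rg (-0.09) within 6 kb, stood at 0.25 and 0.28. Kctd17 and C1qtnf6, 39952 and 28074 bases from Il2rb (-0.29), stood at 1.12 and -1.09. Unc13a and B3gnt3, 4538 and 180 bases from Jak3 (-0.34), stood at -1.44 and 0.57. For Il2 (-0.32), 4932438A13Rik, 67489 bases away, stood at 0.29 and Cetn4, 181789 bases away, at 0.59. C1qtnf6, Unc13a, B3gnt3 and Cetn4 had a mean under 30 normalized counts. These are values of 1 library per condition with no test.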
